A study of Mus musculus with 6 samples.

Results

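The genes described here are 8 regulators of necroptosis and of apoptotic caspases: the nucleic acid sensor Zbp1, the kinases Ripk1 and Ripk3, the necroptosis executor Mlkl, the initiator caspase Casp8 and its paralog Cflar (c-FLIP), and the apoptosome genes Apaf1 and Casp9. They were chosen by name, with no threshold on measured values, and all 8 were found among the 53618 named rows of the expression table. A total of 7 of the 8 passed the filter on low values, and 12298 genes passed it in all. Zbp1 did not.

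Necroptosis is a lytic form of cell death. ZBP1, or RIPK1 downstream of death receptors, engages RIPK3 through a shared interaction motif, RIPK3 phosphorylates MLKL, and MLKL then permeabilizes the plasma membrane. Caspase-8, recruited through FADD, cleaves RIPK1 and RIPK3 and so restrains this route, while c-FLIP, which resembles caspase-8 but lacks a working catalytic site, sets how far caspase-8 is activated. The intrinsic apoptotic route runs through APAF1, which assembles with cytochrome c into the apoptosome and activates caspase-9. Zbp1 and Mlkl are known as interferon-stimulated genes, and USP18, the gene targeted in this study, restrains type I interferon signaling.

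The study asked which transcripts change in leukemia cells after loss of 1 Usp18 allele. AE9a (a truncated AML1-ETO fusion) leukemia cells carrying GFP, with the genotype Usp18+/f UBCER-Cre, had been transplanted into irradiated wild-type C57BL/6 recipients of both sexes, aged 8 to 12 weeks. Sick recipients received oil (genotype label Usp18+/f) or tamoxifen (genotype label Usp18+/Δ), and GFP+Lin-c-Kit+ cells were sorted from spleen 3 days after the first injection. There were 3 libraries per group, with 19172471 to 23785143 reads each. Both groups carried the floxed allele and the tamoxifen-inducible Cre, which the ubiquitin C promoter drives broadly, so Usp18 loss, Cre activation and tamoxifen itself cannot be told apart. The host's own cells keep intact Usp18.

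Features of the libraries bear on each result below. The count of the targeted gene ran counter to its labels, but it covers the whole gene and not the floxed part alone and so is no direct check of the deletion. Usp18 (chr6:121245906-121270917, + strand, GRCm38) showed 477, 329 and 284 normalized counts (reads divided by 1 size factor per library) under the tamoxifen label and 217, 214 and 176 under the oil label. All 3 tamoxifen values were the higher ones, at a log2 fold change of 0.81 ± 0.25 (SE, n = 3 per group) and a limma adjusted p of 0.666, so groups are called by their labels throughout. The library labelled tamoxifen 1 stood apart, with 0.00923% of its reads from mitochondrial genes against 1.01% to 1.56% in the other 5 libraries. The c-Kit transcript Kit was high in every library (4687 to 10976 normalized counts), but Ptprc, which encodes the pan-leukocyte antigen CD45, reached at most 8.08 normalized counts in any library, and the summed erythroid markers stood at 46961 to 66188 normalized counts under the oil label and at 51970 to 82717 under the tamoxifen label. In sorted bulk samples, fewer cells of a type and less RNA per cell cannot be told apart.

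None of the 7 tested genes (all but Zbp1) differed between the libraries labelled oil and tamoxifen past an adjusted p of 0.05 by limma with all libraries weighted alike. The background was the same, with 0 of 12298 genes (0%) past that threshold. At an unadjusted p below 0.05, limma called 0 of the 7 tested genes, against 4.47% of all genes. On recovered reads edgeR and DESeq2 each called 0 of them at an adjusted p (0% and 0.293% of all genes) and 0 at an unadjusted p below 0.05 (4.85% and 3.65%). Library weights give less weight to libraries that vary more. With them limma called 1 of the 7 past the adjusted threshold, Mlkl (adjusted p = 0.00782), against 6.36% of all genes. The 3 libraries of each group did not overlap for 1 of the 7 tested genes, Mlkl, against 17.6% of all tested genes in either direction. The median log2 fold change of the 7 was -0.11, with 3 above and 4 below 0, and that of all tested genes was -0.02.

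The start regions of these genes were read for letters that interferon-activated factors are known to bind. RefSeq promoters on GRCm38.p6, from 250 bases before to 50 after each start, were matched for 7 of the genes with 8 start sites, Ripk1 having 2. The motifs searched, on both strands, were the core of an interferon-stimulated response element (GAAA, any 2 bases and GAAA again), GAAANGAAA (its form with a spacer of 1 base) and TTCNNNGAA (the palindrome STAT dimers bind). They were found in 3.44%, 3.17% and 8.30% of all 32851 promoters. Zbp1 was not among the genes matched. The 5 matches are shown because they are the only ones in the 8 promoters searched, with the motif in capitals, in the gene's own direction.
Casp8, chr1:58802383-58802411, + strand, 109 to 101 bases before the start: tgcgaaagcaGAAACGAAActgggagacc
Ripk1 second start, chr13:34002756-34002784, + strand, 108 to 100 bases before it: agaagctggtTTCCCGGAAggggcggagg
Ripk1 second start, chr13:34002853-34002873, + strand, 11 to 3 bases before it: acttcaaacgTTCCCGGAAat
Ripk1 second start, chr13:34002869-34002878, + strand, across the start and overlapping the match above: GAAATCGAAA
Cflar, chr1:58711497-58711506, + strand, just after the RefSeq start: TTTCGGTTTC

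The Cflar match is the reverse complement of its motif. None of the 3 motifs lay in the window of Mlkl, the tested gene whose groups did not overlap, and its 250 bases before the start are shown for that reason, with nothing in capitals.
Mlkl, chr8:111338206-111338455, - strand: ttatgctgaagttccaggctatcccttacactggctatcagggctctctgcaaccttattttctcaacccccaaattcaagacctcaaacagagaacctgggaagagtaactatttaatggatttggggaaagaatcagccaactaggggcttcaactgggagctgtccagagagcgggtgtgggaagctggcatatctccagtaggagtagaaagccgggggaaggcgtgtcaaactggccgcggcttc

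A match describes letters and not binding, and its absence says only that these letters are not in this window. The Casp8 window lies at a RefSeq start downstream of that gene's annotated start.

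Zbp1 (ENSMUSG00000027514.14, chr2:173206612-173218923, - strand) binds left-handed double-stranded nucleic acid and carries the signal to RIPK3. It had no read in any of the 3 libraries labelled oil, and 3, 1 and 2 reads in the libraries labelled tamoxifen 1, 2 and 3. These are 3.83, 1.01 and 1.82 normalized counts, and the limit that a count of 0 allows (3 reads, counting error only) lay at 2.69 to 3.83 normalized counts across the libraries. The sensor was thus at or near the limit of detection in both groups, and no fold change is given. Across the 6 libraries the tested genes whose log2 values followed its few reads most closely were Cyp4f17 and Cpne2 (Pearson's r = 0.996 each), Rtn4r and Ddit4 (r = 0.993 each) and Scin (r = 0.990). These correlations describe 6 libraries that share their scaling, and they rest on a gene at 0 to 3 reads.

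Ripk1 (ENSMUSG00000021408.15, chr13:34002363-34037147, + strand) encodes the scaffold kinase on which survival, apoptosis and necroptosis branch after TNF receptor signaling. It had 984, 999.5 and 1040.0 normalized counts under the oil label and 787, 1044 and 983 under the tamoxifen label. The library labelled tamoxifen 1 was the lowest of all 6 and tamoxifen 2 the highest, so the groups overlapped. The log2 fold change was -0.11 ± 0.16 (SE, n = 3 per group; limma adjusted p = 0.736), and its 95% interval ran from 0.705-fold to 1.21-fold. Its gene body overlaps Serpinb6a on the other strand, which had 95 to 192 reads, and the sources used here do not state whether counting used strand.

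Ripk3 (ENSMUSG00000022221.14, chr14:55784995-55788865, - strand) encodes the kinase that both ZBP1 and RIPK1 engage. It had 3321, 3333 and 3452 normalized counts under the oil label and 4109, 3409.8 and 3087 under the tamoxifen label. The 3 libraries labelled tamoxifen spanned a wider range than the oil ones and enclosed it, with tamoxifen 1 on top. The log2 fold change was 0.06 ± 0.15 (SE, n = 3 per group; limma adjusted p = 0.847), with a 95% interval from 0.809-fold to 1.34-fold.

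Mlkl (ENSMUSG00000012519.14, chr8:111311797-111338177, - strand) encodes the pseudokinase that ends the necroptotic route at the membrane. It had 704, 711 and 753 normalized counts under the oil label and 760.4, 882 and 1217 under the tamoxifen label. Every library labelled tamoxifen lay above every library labelled oil, although tamoxifen 1 did so narrowly and tamoxifen 3 stood well above the rest. Under TMM scaling the groups overlapped, with tamoxifen 1 at 724 normalized counts and oil 3 at 757. 7.86% of all tested genes were non-overlapping in this direction. The mean was 723 ± 26.4 (SD, n = 3) against 953 ± 236 (SD, n = 3), a log2 fold change of 0.37 ± 0.21 (SE), or 1.29-fold with a 95% interval from 0.918-fold to 1.82-fold, and limma gave an unadjusted p of 0.118 and an adjusted p of 0.666. Without tamoxifen 1 the log2 fold change was 0.52 (limma unadjusted p = 0.00304, adjusted p = 0.181), and without tamoxifen 3 it was 0.18 (limma adjusted p = 0.566). With library weights it was 0.65 and passed the threshold (limma adjusted p = 0.00782). That value lies above the 0.52 without tamoxifen 1, so the weighted fit leaned on tamoxifen 3, the highest library, more than on tamoxifen 2. Its start region, printed with the promoters, held none of the 3 interferon-related motifs.

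Macrophages also express Mlkl, and the sort's lineage-negative gate is meant to remove mature myeloid cells. The summed level of 12 macrophage markers was 117 to 269 normalized counts under the oil label and 298 to 405 under the tamoxifen label. Within the latter group it was 344 in tamoxifen 1, 405 in tamoxifen 2 and 298 in tamoxifen 3. 5 of the 12 did not overlap between the groups, all higher in the libraries labelled tamoxifen, and none of the 12 was at 0 in all libraries. The 6 neutrophil markers summed to 2.89 to 9.29 against 26.4 to 41.4 normalized counts, with 4 of the 6 non-overlapping and higher and 1 at 0 in all libraries. Of all tested genes, 7.86% were non-overlapping and higher. Only 8 of the 12 macrophage and 1 of the 6 neutrophil markers passed the filter on low values, so many of these values are near the floor. The part of either cell type in the Mlkl values was not tested.

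**Figure D1:**
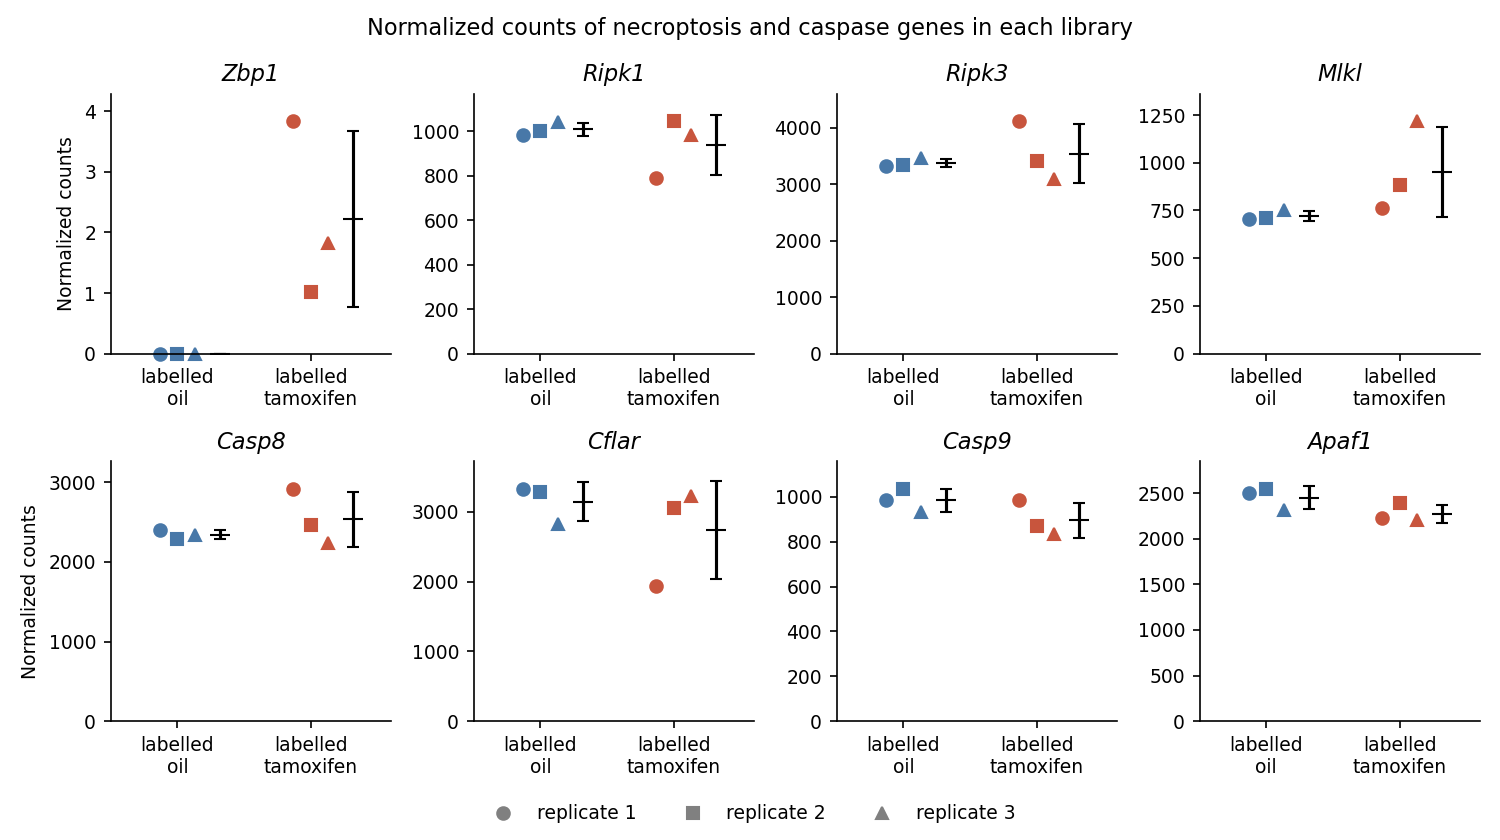
Normalized counts (y axes, linear and from 0) of each of the 8 genes in the 3 libraries labelled oil (blue) and the 3 labelled tamoxifen (red), with the marker shape giving the replicate number and the black bars the mean ± SD. With the deposited scaling Mlkl is the one tested gene with no overlap between groups (704 to 753 against 760.4 to 1217), and tamoxifen 1, the red circle, is the lowest library for Ripk1 and Cflar and the highest for Ripk3 and Casp8.

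Casp8 (ENSMUSG00000026029.14, chr1:58795374-58847503, + strand) encodes the initiator caspase of death receptors. It had 2400.1, 2283 and 2342 normalized counts under the oil label and 2918, 2458 and 2239 under the tamoxifen label. As with Ripk3, the libraries labelled tamoxifen enclosed the oil ones and tamoxifen 1 was the highest. The log2 fold change was 0.11 ± 0.15 (SE, n = 3 per group; limma adjusted p = 0.728), with a 95% interval from 0.840-fold to 1.38-fold. The promoter window that held GAAANGAAA (from chr1:58802252) lies at a RefSeq start inside this annotated gene. The annotated start at 58795374 was not searched.

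Cflar (ENSMUSG00000026031.15, chr1:58711508-58758884, + strand) lies close to Casp8 on the same strand. It had 3327, 3278 and 2822 normalized counts under the oil label and 1932, 3052 and 3223 under the tamoxifen label. Tamoxifen 2 and 3 fell inside the oil range and tamoxifen 1 far below it. The log2 fold change was -0.23 ± 0.23 (SE, n = 3 per group; limma adjusted p = 0.668), with a 95% interval from 0.585-fold to 1.24-fold, and without tamoxifen 1 it was 0.0011 (limma adjusted p = 0.997).

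Apaf1 (ENSMUSG00000019979.12, chr10:90989311-91082770, - strand) encodes the scaffold of the apoptosome. It had 2500.7, 2548 and 2311 normalized counts under the oil label and 2231, 2389 and 2209.8 under the tamoxifen label. The groups overlapped through oil 3 and tamoxifen 2 alone. The log2 fold change was -0.11 ± 0.13 (SE, n = 3 per group; limma adjusted p = 0.694), with a 95% interval from 0.750-fold to 1.15-fold.

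Casp9 (ENSMUSG00000028914.13, chr4:141793612-141815976, + strand) encodes the caspase that the apoptosome activates. It had 985, 1035 and 933 normalized counts under the oil label and 984, 869.9 and 833 under the tamoxifen label. Tamoxifen 2 and 3 lay below every oil library and tamoxifen 1 among them. The log2 fold change was -0.14 ± 0.15 (SE, n = 3 per group; limma adjusted p = 0.673), with a 95% interval from 0.712-fold to 1.16-fold, and without tamoxifen 1 it was -0.21 (limma unadjusted p = 0.0432, adjusted p = 0.399).

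**Figure D2:**
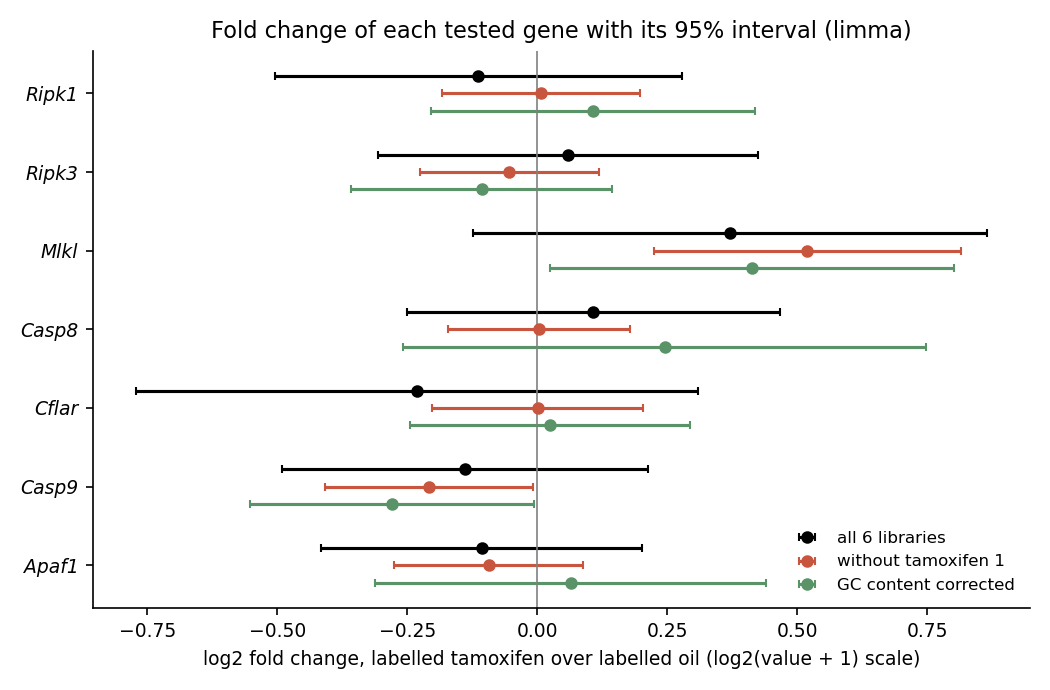
Log2 fold change (x axis, libraries labelled tamoxifen over those labelled oil) of the 7 tested genes with 95% intervals from limma, from all 6 libraries (black), without tamoxifen 1 (red) and after a correction for GC content (green). The black interval of every gene includes 0, and the red and green intervals exclude 0 for Mlkl (log2 fold changes 0.52 and 0.41) and Casp9 (-0.21 and -0.28), whose adjusted p-values were 0.181 to 0.681; at an unadjusted p below 0.05 these settings called 12.1% and 6.6% of all genes.

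The spread among the 3 libraries of a group was described by the coefficient of variation and not tested. In the libraries labelled oil it was 2.15% for Ripk3, 2.51% for Casp8, 2.88% for Ripk1 and 3.66% for Mlkl, and it reached 8.87% for Cflar. In the libraries labelled tamoxifen it was 13.7% to 14.8% for Casp8, Ripk1 and Ripk3, 24.8% for Mlkl and 25.6% for Cflar. Apaf1 was the one tested gene with a smaller spread in the libraries labelled tamoxifen (4.30%) than in those labelled oil (5.11%), and Casp9 had 8.80% against 5.18%. For Mlkl the highest library was tamoxifen 3, whereas for Ripk1, Ripk3, Casp8 and Cflar the library farthest from the others was tamoxifen 1. Without tamoxifen 1 the log2 fold changes of the last 4 were 0.0078 for Ripk1, -0.05 for Ripk3, 0.0030 for Casp8 and 0.0011 for Cflar.

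Levels of different genes were compared per kilobase of annotated exon. In the libraries labelled oil, Ripk3 was the most abundant of the 8 genes, at 1470 ± 31.7 normalized counts per kb (SD, n = 3), above 93.6% of 10799 tested protein-coding genes. Casp8 followed at 809 ± 20.3, above 87.0% of them, and then Mlkl at 314 ± 11.5. Below these came Apaf1 at 272 ± 13.9, Cflar at 248 ± 22.0, Casp9 at 189 ± 9.82 and Ripk1 at 121 ± 3.48 normalized counts per kb. Ripk1, whose product engages RIPK3 and is cleaved by caspase-8, was the lowest of the 7. Neighbours in this order were separated in all 6 libraries, except that Apaf1 lay above Cflar in 5 of 6 libraries, with overlapping ranges in the oil group, and Cflar above Casp9 in 5 of 6. Exon length was the union over annotated transcripts, 12669 bases for Cflar and 2292 for Ripk3, so a gene whose long exons are little used ranks lower on this scale.

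**Figure D3:**
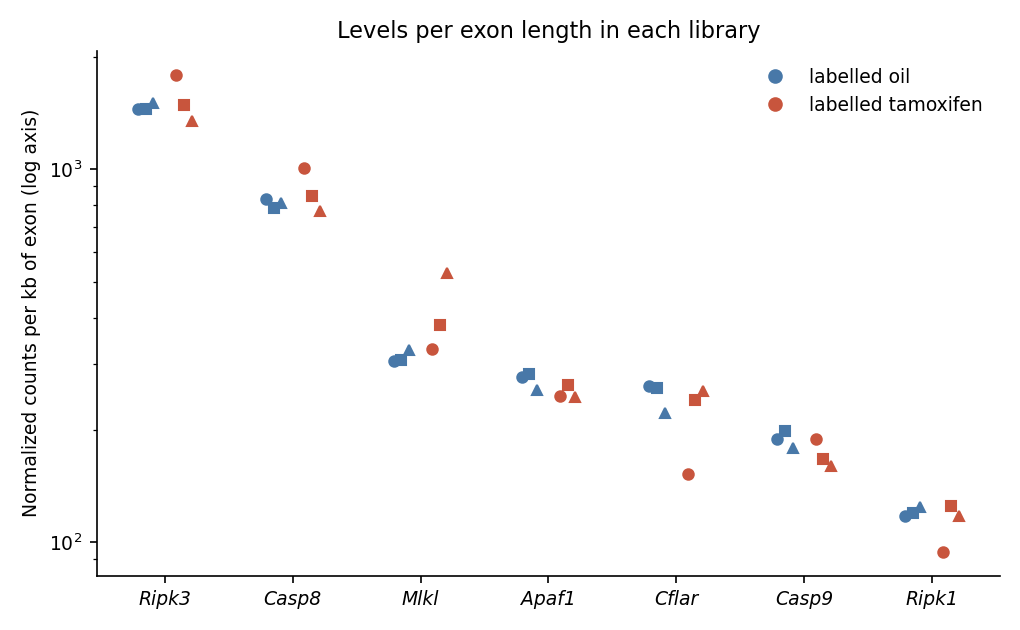
Normalized counts per kb of exon (y axis, log scale) of the 7 tested genes, ordered by their mean in the libraries labelled oil (blue; red marks those labelled tamoxifen, and shapes the replicate as in the plot of counts by library). Ripk3 and Casp8 stand above the rest in every library, and Ripk1 is at the foot, at 121 ± 3.48 in the libraries labelled oil.

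The balance between partners, as a ratio of levels per kb, differed little among the libraries labelled oil. These 4 pairs were chosen after the values had been seen. Ripk3 exceeded its substrate Mlkl by 4.74, 4.71 and 4.61 times in the libraries labelled oil, and by 5.43, 3.88 and 2.55 times in those labelled tamoxifen. The last library, tamoxifen 3, was thus the one with the least Ripk3 per Mlkl transcript (two-sided exact permutation p = 0.4, where 3 against 3 libraries cannot give less than 0.1). Cflar stood at 0.317, 0.328 and 0.275 of Casp8 in the libraries labelled oil, and at 0.151, 0.284 and 0.329 in those labelled tamoxifen (exact permutation p = 0.7). The low value belonged to tamoxifen 1. Ripk3 exceeded Ripk1 by 12.1 to 12.3 times in the libraries labelled oil, and by 19.0, 11.9 and 11.4 times in those labelled tamoxifen (exact permutation p = 1). Apaf1 to Casp9 ranged from 1.42 to 1.46 and from 1.31 to 1.58 (exact permutation p = 0.9).

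Base composition moved with the values of tamoxifen 1. Over all tested genes with a known transcript, the log2 deviation of tamoxifen 1 from the mean of the other 5 libraries had a median of -1.86 for transcripts below 40% GC and 1.16 for those of 60% or more. Cflar, at 44.4% GC, deviated by -0.70 and Ripk1, at 45.1%, by -0.36, where genes of 44% to 48% GC had a median of -0.41. Ripk3, at 54.2% GC, deviated by 0.31 and Casp9, at 53.4%, by 0.08, where genes of 52% to 56% had a median of 0.49. Casp8 deviated by 0.32 at 46.6% GC, above the upper quartile of 0.088 for genes of its composition. After the correction for GC content the log2 fold change became 0.11 for Ripk1, -0.11 for Ripk3, 0.24 for Casp8, 0.06 for Apaf1 and 0.02 for Cflar, so Ripk1, Ripk3, Apaf1 and Cflar changed sign, and Mlkl (0.41) and Casp9 (-0.28) did not.

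**Figure D4:**
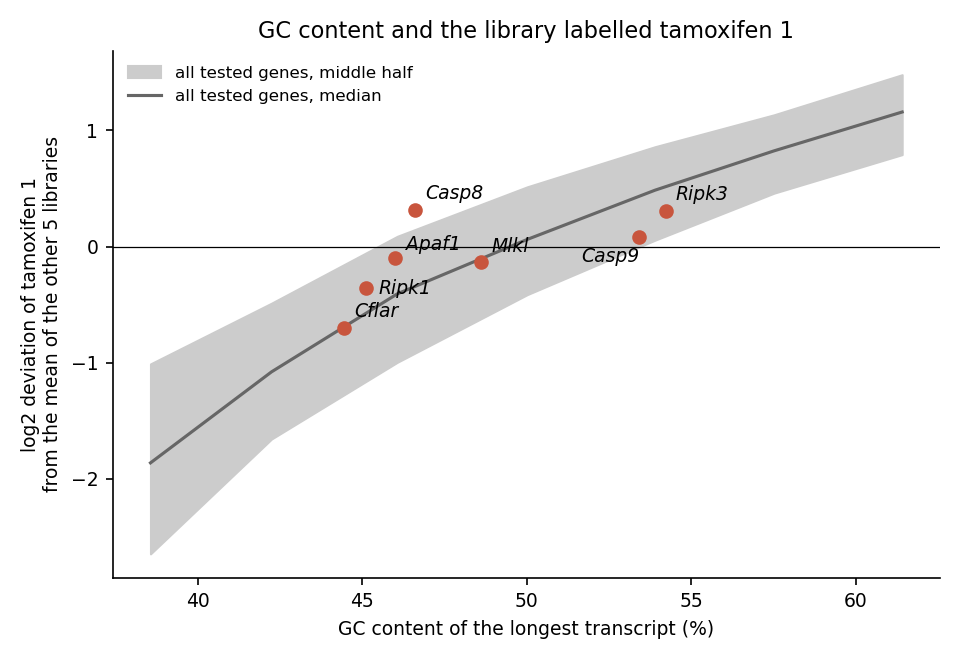
Log2 deviation of the library labelled tamoxifen 1 from the mean of the other 5 libraries (y axis) against GC content of the longest transcript (x axis, %), for the 7 tested genes (red points) and for all tested genes (line, median; grey band, interquartile range). Cflar and Ripk1 lie near the falling left part of the line, and Casp8 (0.32) lies above the band.

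The wider pathways were read from 5 lists of 59 other genes, of which 55 were tested. By limma, 0 of the 55 passed an adjusted p of 0.05, and 2 (Adar and Ikbke) had an unadjusted p below 0.05, both higher in the libraries labelled tamoxifen, where 3.23% of all tested genes were higher and 1.24% lower at that level. The groups did not overlap for 8 genes on the higher and 8 on the lower side. The corresponding shares of all tested genes were 7.86% and 9.69%. The median log2 fold change of the 55 was 0.04, and -0.04 without tamoxifen 1.

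Among the genes of nucleic acid sensing and ZBP1 restraint, 3 of 5 were tested. Adar, the RNA editing enzyme that keeps double-stranded RNA from ZBP1, had 1092, 1307 and 1050.2 normalized counts under the oil label and 2706, 1675 and 1568 under the tamoxifen label. All 3 of the latter were the higher ones, with a log2 fold change of 0.75 ± 0.24 (SE, n = 3 per group; limma unadjusted p = 0.019, adjusted p = 0.666), and of 0.50 without tamoxifen 1. Eif2ak2 (the kinase PKR) had 1170.4, 1347 and 1301 normalized counts under the oil label and 458, 1729 and 1488 under the tamoxifen label, so tamoxifen 1 was the lowest library and the other two the highest. Its log2 fold change was -0.27, and 0.34 without tamoxifen 1. Ticam1 (the adaptor TRIF) had a log2 fold change of 0.15 with overlapping groups, which turned to -0.04 without tamoxifen 1 and to -0.08 after GC correction. Tlr3 and Tlr4 had 3 reads or fewer in every library.

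All 24 genes of the RIPK1 complex and its restraint were tested, with a median log2 fold change of 0.07 and 14 above 0. The median was -0.04 without tamoxifen 1. The groups did not overlap for 5 of the 24 on the higher and 3 on the lower side, where 7.86% and 9.69% of all tested genes did not. Ikbke, a kinase related to TBK1, had 251, 282 and 270.2 normalized counts under the oil label and 845, 408 and 421 under the tamoxifen label. It was thus higher in every tamoxifen library, at a log2 fold change of 0.97 ± 0.31 (SE, n = 3 per group; limma unadjusted p = 0.0173, adjusted p = 0.666), and of 0.63 without tamoxifen 1. Spata2, which tethers the deubiquitinase CYLD to the complex, had a log2 fold change of 0.47 without overlap (0.24 without tamoxifen 1), and Tnfaip3, the ubiquitin-editing enzyme A20, one of 0.50 with overlap.

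Of the 12 genes acting with MLKL or on membrane repair, 6 were above and 6 below 0, with a median log2 fold change of -0.05. The groups did not overlap for Vps4a, an ATPase of the ESCRT machinery (log2 fold change -0.42), and for the mitochondrial phosphatase Pgam5 (-0.40), both lower. Without tamoxifen 1 they stood at -0.18 and -0.15. The share of all tested genes that were non-overlapping and lower was 9.69%. Vps4b stood at -0.48 and at -0.06 without tamoxifen 1.

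Among the other caspases, 4 of the 5 tested genes had a negative log2 fold change, as had 6340 of all 12298 tested genes. Casp2 and Casp6, named after their values were seen, did not overlap between the groups and were lower, with log2 fold changes of -0.25 and -0.19 (-0.12 and -0.21 without tamoxifen 1). Of all tested genes, 9.69% were non-overlapping and lower. The inflammatory caspase Casp4 went the other way, at 38.6, 26.0 and 39.9 normalized counts under the oil label and 37.1, 61.6 and 82.8 under the tamoxifen label (log2 fold change 0.73, limma adjusted p = 0.666). Its log2 fold change was 1.04 without tamoxifen 1 and 1.37 after GC correction. Casp1 and Casp12 did not pass the filter on low values.

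The 11 genes of the apoptosome, of mitochondrial release and of caspase inhibition had a median log2 fold change of 0.06, with 8 above 0, and a median of -0.03 without tamoxifen 1. Endog, a mitochondrial nuclease, had 99.7, 106 and 119.8 normalized counts under the oil label and 360.4, 141 and 155 under the tamoxifen label, for a log2 fold change of 0.87 ± 0.38 (SE, n = 3 per group; limma adjusted p = 0.666) and of 0.45 without tamoxifen 1. Its transcript is at 64.3% GC. Dffb, the caspase-activated DNase, also did not overlap and was higher (0.28), and Htra2, a protease released from mitochondria, stood at 0.46 with overlap. Without tamoxifen 1 they stood at 0.16 and 0.14. The share of all tested genes that were non-overlapping and higher was 7.86%.

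**Figure D5:**
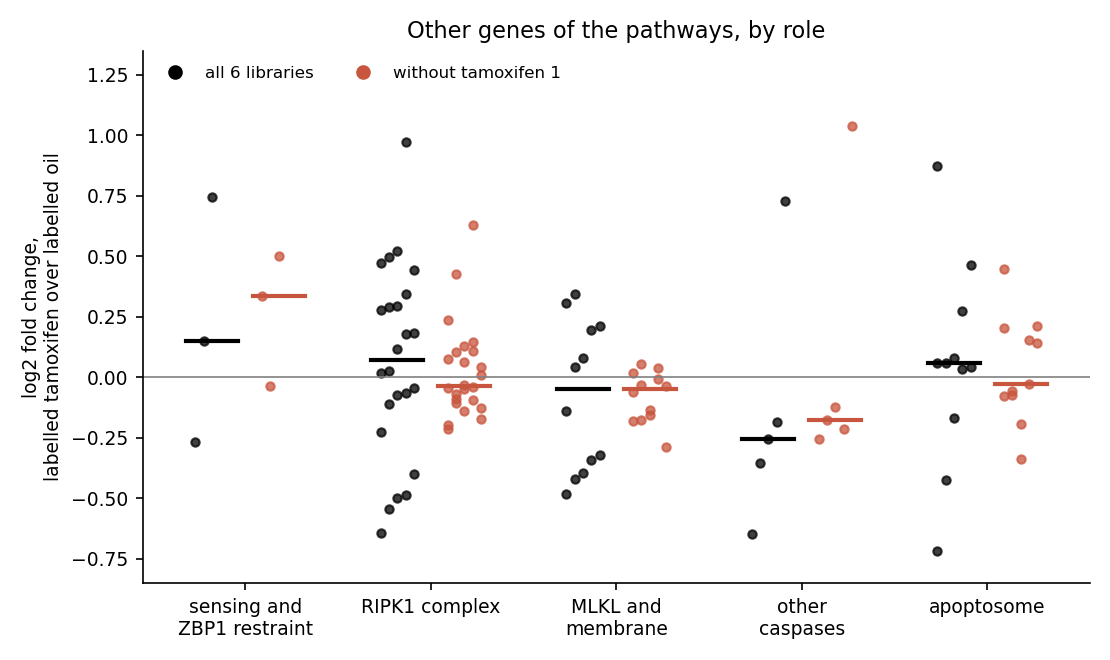
Log2 fold change (y axis, libraries labelled tamoxifen over those labelled oil) of the 55 tested genes in the 5 lists, from all 6 libraries (black) and without tamoxifen 1 (red), with each list's median as a line. The points lie on both sides of 0 in every list, and the medians over all 6 libraries run from -0.25 for the other caspases to 0.15 for sensing and ZBP1 restraint.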

How the data were processed

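RNA of GFP+Lin-c-Kit+ splenocytes from 6 mice, 1 library each, was extracted with Trizol and made into Nextera libraries. The authors aligned reads with STAR to mm10 and deposited a table from DESeq2 (versions are not given in the sources used here); its deposited signal is a read count divided by 1 size factor per library. All values in each library were whole multiples of 1 read (tolerance 0.1 read), and the recovered reads served edgeR 4.0.16 and DESeq2 1.42.0 as alternatives. Of 55450 rows, 1832 without a gene name (0.0400% to 0.0614% of reads) were left out and 1402 broken rows were rejoined.

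The main test was limma 3.58.1 (R 4.3.3) on log2(value + 1) with a mean-variance trend, over the 12298 genes that reached 10 normalized counts in 3 libraries or more, two-sided, with Benjamini-Hochberg adjustment at 0.05. Fold changes are on the log2(value + 1) scale, which understates those of low genes. Fit and script were tested on simulated data. For 200 of the 12298 genes changed by 2 on the log2 scale, 98% were recovered with 15 false calls. The simulation gave every gene a dispersion of 0.05 and held no library that stood apart as tamoxifen 1 did. It checks the script and does not measure the power of the test in these data.

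The members and the gene lists were chosen with earlier results of these data known. The text names all 8 members, Usp18, up to 3 genes of each list with the smallest unadjusted p, and the 5 genes correlating best with Zbp1. Some results of genes this rule names are not reported here. Exon lengths, GC content and gene positions came from GENCODE on GRCm38, the build of mm10, and promoters from RefSeq on GRCm38.p6. Ratios were compared by an exact permutation test. T cell, NK cell, B cell and dendritic cell markers were also summed: in the libraries labelled oil and tamoxifen they reached 0.898 to 2.89 and 1.82 to 8.08, 0 to 0.965 and 0 to 0.909, 4.64 to 9.65 and 6.06 to 24.3, and 85.3 to 130.2 and 84.9 to 175 normalized counts, with 2 of 6, 4 of 5, 2 of 5 and 0 of 5 at 0 throughout, and 5 progenitor markers (Kit, Cd34, Ptprc, Myb and Gata2) 22062 to 27011 and 21290 to 26693. The sources name no batches, and p-values measure the spread between these 6 samples. Alternatives were other scalings, pseudocounts, filters, a GC correction by loess per library, library weights, a replicate block and leaving out each library.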

Additional observations from a re-analysis of the deposited data

How the results depend on the processing

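18 alternatives were run. Mlkl kept its direction in all of them (log2 fold change 0.18 to 0.65) and so did Casp9 (-0.28 to -0.07); the sign was opposite in 3 for Ripk1, 4 for Ripk3, 1 for Casp8, 2 for Apaf1 and 4 for Cflar. Limma with library weights, which give less weight to libraries that vary more, called 1 member past the adjusted threshold, Mlkl (0.65, adjusted p = 0.00782; 0.00782 to 0.861 over the alternatives), and 2 at an unadjusted p below 0.05, Mlkl and Casp9; it called 4 of the wider genes (Adar, Ikbke, Casp4 and Birc5), and Usp18 stood at 0.52 (adjusted p = 0.0348). The same setting called 782 of all 12298 genes (6.36%), against 41 without tamoxifen 1, 2 with the GC correction and, by DESeq2 over 24246 genes, 71 (0.293%). At an unadjusted p below 0.05 it called 2872 genes (23.4%), against 550 with all libraries weighted alike. The GC correction gave 2 members (Mlkl and Casp9) at an unadjusted p below 0.05, where 812 genes (6.6%) were, and 2 without overlap between groups, as for 18% of all genes. With no filter 1 member, Zbp1, had an unadjusted p below 0.05, on 0 to 3 reads, where 1111 of 24247 genes (4.58%) did.

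Leaving out each library in turn, 0 to 2 members had an unadjusted p below 0.05 (2, Mlkl and Casp9, without tamoxifen 1, where 1488 genes or 12.1% did; without tamoxifen 2 there were 1073 genes, and without oil 1, 2 and 3 there were 324, 225 and 252). The members without overlap numbered 1 to 4: 4 without oil 3 (Mlkl, Casp9, Apaf1 and Cflar), 3 without tamoxifen 2 (Ripk1, Mlkl and Apaf1), 2 without tamoxifen 1 (Mlkl and Casp9) and 2 without tamoxifen 3 (Mlkl and Casp8), against 26%, 37%, 29.4% and 26.6% of all genes. Under TMM scaling the 1 member without overlap was Casp9 in place of Mlkl (17.6% of all genes). The cause of these changes was not tested.

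Same-numbered libraries did not deviate together (correlations of -0.02, 0.06 and -0.15). With 3 libraries per group, and tamoxifen 1 standing apart, such correlations cannot exclude that the numbers pair the samples. The fit with the replicate block called 0 members at an adjusted or unadjusted p and gave Usp18 0.81; it called 0 genes in all and 426 at an unadjusted p below 0.05. The median log2 fold change of all genes was -0.04 under TMM and 0.05 under upper-quartile scaling, and 0.11 for DESeq2 over 24247 unfiltered genes. Zbp1 had 3 reads or fewer in every library at this depth. The SE of the log2 fold change fell without tamoxifen 1, from 0.16 to 0.085 for Ripk1, 0.21 to 0.13 for Mlkl and 0.23 to 0.090 for Cflar.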
